A study of Mus musculus and Homo sapiens with 67 samples.

Results

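KPC tumours grown in the mouse pancreas and given the EZH2 inhibitor tazemetostat together with the RAS inhibitor RMC-6236 were compared with the same tumours given RMC-6236 alone. The comparison used 4 combination libraries and 4 RMC-6236 libraries, which is 8 of the 67 labelled samples of the series, and 13545 of the 55335 genes in the tumour table had at least 1 FPKM in 4 or more of the 16 tumour libraries and were tested. The other tumour arms, 4 libraries with tazemetostat and 4 with vehicle (control), entered the fit and serve as side values. The tumours were grown from 1 line of mouse pancreatic cancer cells (KPC1199), whose genotype the labels do not give, and their RNA also holds that of the host's pancreas, vessels and blood cells. The labels give no dose, treatment time, mouse strain, sex or age, and they do not say that each library is a separate animal, so p-values measure only the spread between these libraries. Values are FPKM, fragments scaled to transcript length and to all mapped fragments, which hold no read totals, so depth per library is unknown. Differences are on the log2(FPKM + 1) scale with standard errors, which understates the change of low genes, and a gene was called where limma's adjusted p was under 0.05.

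EZH2 is the catalytic subunit of polycomb repressive complex 2 (PRC2), which trimethylates histone H3 at lysine 27 and keeps developmental genes silent, and tazemetostat blocks its activity without removing the protein. RMC-6236 binds the active, GTP-bound form of RAS and shuts down the ERK kinase cascade that drives pancreatic cancer. The exocrine pancreas is built of acinar cells, which secrete digestive enzymes, and a pancreatic tumour is typically rich in fibroblasts and poor in vessels. In bulk tumour RNA, more cells of a type and more RNA per cell cannot be told apart.

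Epithelial markers were abundant in all 8 libraries, with summed epithelial FPKM of 978 to 1577 in the combination arm and 1597 to 2222 in the RMC-6236 arm. Some libraries stood apart. Combination replicate 3 had the lowest acinar sum of its arm (158 FPKM, inside the 9.19 to 178 FPKM of the RMC-6236 arm) and the highest sums for pericyte and smooth muscle (282 FPKM, against 54.7 to 67.6 in the other combination libraries), adipocyte (218, against 7.02 to 28.5) and neutrophil genes (272). RMC-6236 replicate 2 had the lowest acinar sum (9.19 FPKM) and the highest B and plasma cell sum (670 FPKM, against 8.94 to 156 in the other RMC-6236 libraries). The share of FPKM in mitochondrially encoded genes was 10.01% to 12.4% in the combination arm and 9.67% to 12.1% in the RMC-6236 arm, and genes at 1 FPKM or more numbered 13081 to 13414 with the combination and 12722 to 12795 with RMC-6236.

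**Figure D1:**
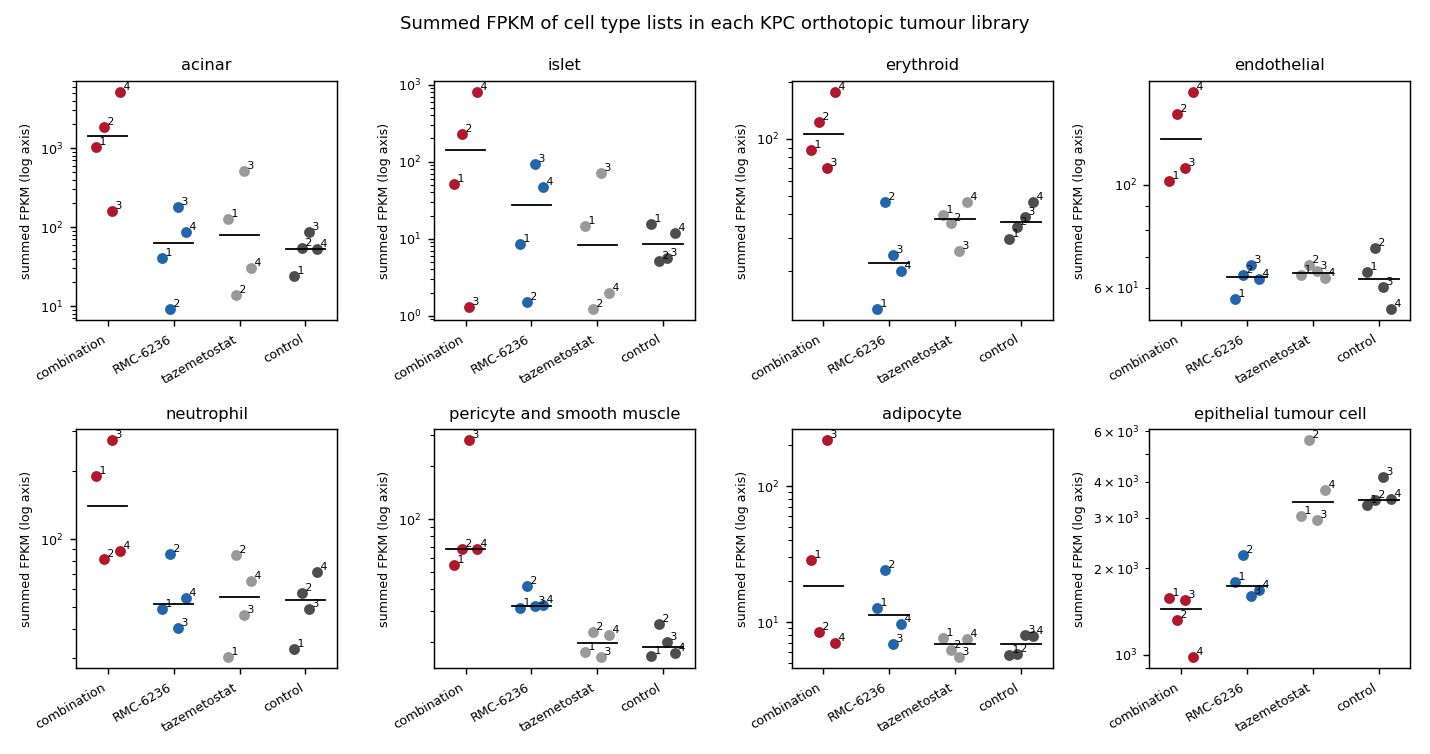
Summed FPKM of 8 cell type lists in each tumour library (log axis; the digit is the replicate number, the line the median of the 4 libraries). Acinar sums reached 5145 FPKM in the combination arm, endothelial and erythroid sums did not overlap between the combination and RMC-6236 arms, and combination replicate 3 stood apart in the adipocyte and the pericyte and smooth muscle panels.

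Over all genes, 699 (5.16%) were higher and 402 (2.97%) lower with the combination than with RMC-6236, 1101 (8.13%) in all. Genes called higher had a median difference of 0.69 and those called lower of -0.30, and 188 against 3 passed a 2-fold change. The median of all genes tested was -0.005. Of the called genes 63.5% were higher, a share that was 51.4% with libraries rescaled by the median ratio (675 higher, 639 lower). Leaving out RMC-6236 replicate 4 lowered the count of genes called lower to 227. Rescaling over genes outside the acinar list gave 693 higher and 398 lower. With each library's acinar score as a covariate, 359 genes were higher and 123 lower. With combination replicate 3 as the only combination library, an alternative chosen after the data were seen that leaves the arm with 1 library, 328 were higher and 33 lower. Without overlap between the 4 and 4 libraries were 1070 genes higher (7.90%) and 916 lower (6.76%).

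Ezh2 RNA was measured in every library and was not called. Ezh2 had 5.85, 4.73, 7.61 and 5.95 FPKM in combination replicates 1 to 4, against 4.79, 5.74, 5.64 and 5.54 FPKM in RMC-6236 replicates 1 to 4. The groups overlapped and the difference was 0.12 ± 0.12 (adjusted p = 0.61). No PRC2 gene of 12 was called, and their median was -0.01. Of 36 developmental polycomb targets 18 were tested, with 3 higher, against 5.16% of all genes tested, 2 lower, against 2.97%, and a median of 0.10. The 3 higher genes, Sox17, Hoxb7 and Cdkn1c, reached the filter only through the combination libraries, as did Hoxb8, so the count is a description. Sox17, an endoderm and endothelial transcription factor, rose by 0.73 ± 0.12 to 1.96 ± 0.245 FPKM with the combination, against 0.802 ± 0.336 with RMC-6236 (mean ± SD, n = 4 each). The homeobox gene Hoxb7 had 1.74 ± 0.377 FPKM with the combination, against 0.916 ± 0.266 with RMC-6236 (0.52 ± 0.15, adjusted p = 0.04). Cdkn1c, which codes for the cyclin-dependent kinase inhibitor p57, had 2.60 ± 1.36 FPKM with the combination, against 1.06 ± 0.597 with RMC-6236 (0.78 ± 0.22, adjusted p = 0.036), with overlapping groups. The classic polycomb-silenced INK4 locus went the other way. Cdkn2b (p15) fell by 0.40 ± 0.08 to 62.7 ± 3.32 FPKM with the combination, against 83.1 ± 9.12 with RMC-6236, and Cdkn2a (p16 and p19) fell by 0.40 ± 0.09 to 157 ± 10.6 FPKM with the combination, against 208 ± 30.1 with RMC-6236. Single left-out libraries ended the call of Cdkn1c (5 of 8 libraries, adjusted p up to 0.0936), Hoxb7 (6 of 8, up to 0.124) and Cdkn2a (RMC-6236 replicate 1, 0.0508).

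Acinar genes had the largest differences in the comparison, and they varied widely within the combination arm. Their summed FPKM was 1045, 1835, 158 and 5145 in combination replicates 1 to 4, against 40.5, 9.19, 178 and 86.1 in RMC-6236 replicates 1 to 4, or 0.0552% to 1.83% of all FPKM with the combination and 0.00338% to 0.0633% with RMC-6236. Tazemetostat alone had 13.9 to 518 FPKM and control 24.1 to 88.1. Of the 50 acinar genes 28 were tested, and 9 of these reached the filter only through the combination libraries, so the count of 23 called higher, none lower, is a description. The median of the 28 was 3.70. In 16 of the 28, against 7.90% of all genes tested, every combination library was above every RMC-6236 library. By the sums combination replicate 3 was the low library of its arm and RMC-6236 replicate 3 the high one of the other.

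Proteases and their proenzymes (12 of 18 tested) led the acinar signal. Cela2a, a pancreatic elastase, had 62.6, 103, 9.42 and 259 FPKM in combination replicates 1 to 4, against 1.32, 0.0206, 5.42 and 2.83 FPKM in RMC-6236 replicates 1 to 4. It rose by 4.56 ± 1.003 (adjusted p = 0.012), without overlap. Ctrb1 had 331, 604, 41.1 and 1715 FPKM in combination replicates 1 to 4, against 8.57, 0.218, 50.9 and 30.8 FPKM in RMC-6236 replicates 1 to 4. This chymotrypsinogen gene was the most abundant acinar gene, and its groups overlapped through combination replicate 3 and RMC-6236 replicate 3 (4.88 ± 1.54, adjusted p = 0.069). The trypsinogen gene Prss2 had 148 ± 177 FPKM with the combination, against 5.56 ± 6.73 with RMC-6236, also overlapping (4.07 ± 1.19, adjusted p = 0.052), and it has close copies, so the split of its reads is uncertain.

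The 300 bases around the start of Cela2a and Prss2, which hold both motifs searched, are shown because acinar enzyme genes are known to share binding sequences of the PTF1 complex of PTF1A and RBPJL. They run from 250 bases before to 50 after the start, 5′ to 3′ on the gene's strand, from RefSeq on GRCm38.p6, with the E-box (CACCTG, or CAGGTG on the other strand) and the TC-box (TTTCCCA, or TGGGAAA on the other strand) in capitals.
Cela2a, chr4:141825956-141826255, minus strand: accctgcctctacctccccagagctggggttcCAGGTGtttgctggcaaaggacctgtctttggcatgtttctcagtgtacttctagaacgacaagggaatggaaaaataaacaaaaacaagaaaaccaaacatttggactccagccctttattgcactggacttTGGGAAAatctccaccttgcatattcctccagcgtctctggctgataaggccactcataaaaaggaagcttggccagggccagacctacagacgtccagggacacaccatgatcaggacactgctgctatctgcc
Prss2, chr6:41521526-41521825, plus strand: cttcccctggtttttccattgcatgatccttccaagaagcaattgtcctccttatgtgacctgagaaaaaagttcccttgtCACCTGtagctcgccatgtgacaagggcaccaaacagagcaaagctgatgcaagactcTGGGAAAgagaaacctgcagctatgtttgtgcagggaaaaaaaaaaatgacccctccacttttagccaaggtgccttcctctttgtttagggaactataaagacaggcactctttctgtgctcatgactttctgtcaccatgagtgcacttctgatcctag
Of the 50 acinar genes 40 had a promoter in the RefSeq table. The E-box was in 23 of the 40 (57.5%), against 20.0% of all 27025 promoters. The TC-box was in 8 (20%), against 8.01%, and both were in 4 (10%), against 1.59%. Cela2a and Prss2 are 2 of these 4, and the promoter of Ctrb1, not printed, held 1 TC-box and no E-box. These are matches of letters, and they do not show a bound site.

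Lipases, amylases and nucleases had 8 of 12 genes tested, and each of the 8 was higher. Pnliprp1, a pancreatic lipase-related protein, had 60.4 ± 59.6 FPKM with the combination, against 1.66 ± 1.53 with RMC-6236 (3.98 ± 0.87, adjusted p = 0.012). Amylase Amy2a4 had 52.6 ± 48.4 FPKM with the combination, against 1.36 ± 1.36 with RMC-6236 (3.97 ± 0.91). Its near-identical copies Amy2a2 (3.98 ± 0.92) and Amy2a3 (3.95 ± 0.91) were the 2 genes outside the acinar list with the largest rise, and how reads were split between these copies is uncertain. Clps, the colipase cofactor of lipase, had 51.4, 75.7, 4.70 and 183 FPKM in combination replicates 1 to 4, against 1.71, 0.0563, 10.8 and 3.75 FPKM in RMC-6236 replicates 1 to 4. Its groups overlapped, its difference was 3.67 ± 1.06 (adjusted p = 0.049), and the call ended without any 1 of 6 of the 8 libraries (adjusted p up to 0.135). Rnase1, the pancreatic ribonuclease, reached 109 FPKM in combination replicate 4 and rose by 3.86 ± 0.84.

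Granule and surface proteins followed the enzymes (7 of 15 tested, 6 called). Sycn, a protein of the inner face of zymogen granules, had 32.3 ± 33.5 FPKM with the combination, against 0.905 ± 0.940 with RMC-6236 (3.52 ± 0.87, adjusted p = 0.022). The secreted REG protein Reg2 had 94.9 ± 106 FPKM with the combination, against 3.06 ± 3.42 with RMC-6236, and it rose by 4.04 ± 1.06 (adjusted p = 0.031) with overlapping groups. Its relative Reg1 had 106 ± 129 FPKM with the combination, against 9.07 ± 9.46 with RMC-6236 and did not pass the test (3.11 ± 0.96, adjusted p = 0.063). Cuzd1, a zymogen granule membrane protein, rose by 1.65 ± 0.24 and had the smallest adjusted p of the list (0.00074). It reached the filter only through the combination libraries, so this rank is a description. The related REG proteins Reg3a, Reg3d and Reg3g, which mark injured pancreas, also rose, as 3 of the 12 tested genes of the acinar stress and metaplasia list. In that list 1 gene was called lower, 7 of the 12 had a positive difference, and the median was 0.46. Over all genes tested 5.16% were called higher and 2.97% lower. Reg3a and Reg3d reached the filter only through the combination libraries. Reg3a had 11.03, 23.5, 1.41 and 62.8 FPKM in combination replicates 1 to 4, against 0, 0, 1.08 and 0.721 FPKM in RMC-6236 replicates 1 to 4. Reg3g had 3.52, 4.16, 3.16 and 12.8 FPKM in combination replicates 1 to 4, against 0.628, 0.562, 1.03 and 0.530 FPKM in RMC-6236 replicates 1 to 4. Reg3g was above every RMC-6236 library also in combination replicate 3, and its difference was 1.85 ± 0.35. Sycn lost its call without 4 of the 8 libraries and Reg2 without 6 (adjusted p up to 0.0642 and 0.0887).

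The acinar transcription factors were low. Ptf1a, which specifies acinar cells, had 0.442, 0.754, 0.0465 and 3.02 FPKM in combination replicates 1 to 4, against 0, 0, 0.265 and 0.193 FPKM in RMC-6236 replicates 1 to 4. Its partner Rbpjl had 2.47, 2.21, 0.291 and 7.79 FPKM in combination replicates 1 to 4, against 0.0609, 0, 0.256 and 0.0864 FPKM in RMC-6236 replicates 1 to 4. Neither reached the filter. Gata4 was tested and had 1.35 ± 0.694 FPKM with the combination, against 0.984 ± 0.190 with RMC-6236, with overlapping groups (0.21 ± 0.18, adjusted p = 0.54). The number of acinar members called depended on the fit. It was 14 without combination replicate 2, 15 without RMC-6236 replicate 1 or 2, 27 without combination replicate 3 and 1 where only the 8 compared libraries entered. With combination replicate 3 as the only combination library, 1 member was called and the median was 1.12.

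Islet sums ranked the 4 combination libraries in the same order as the acinar sums. They were 51.8, 230, 1.32 and 804 FPKM in combination replicates 1 to 4, against 8.48, 1.497, 94.7 and 46.8 in RMC-6236 replicates 1 to 4. Insulin (Ins2) had 16.04, 69.8, 0.108 and 301 FPKM in combination replicates 1 to 4, against 2.84, 0, 33.7 and 11.7 FPKM in RMC-6236 replicates 1 to 4. The lowest value of the 8 after the 0 of RMC-6236 replicate 2 was that of combination replicate 3, the groups overlapped, and none of 9 tested islet genes was called (Ins2 1.97 ± 1.52, adjusted p = 0.49). Skeletal muscle sums were at most 4.98 FPKM in any of the 8 libraries, hepatocyte sums at most 11.9, and enterocyte sums were 35.8 to 61.9 with the combination and 49.2 to 58.2 with RMC-6236.

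Blood vessel genes were higher with the combination in nearly the whole list. Of 21 endothelial genes 19 were tested (4 of them through the combination libraries only), and 17 were higher, against 5.16% of all genes tested, and 1 lower, with a median of 0.75. Eng, the endothelial co-receptor endoglin, had 16.3, 24.1, 17.2 and 23.3 FPKM in combination replicates 1 to 4, against 7.42, 9.33, 8.61 and 9.48 FPKM in RMC-6236 replicates 1 to 4. It rose by 1.11 ± 0.12 (adjusted p = 8.4e-05), and the 2 groups did not overlap. Pecam1 had 5.47, 8.34, 6.31 and 9.28 FPKM in combination replicates 1 to 4, against 2.34, 3.32, 3.42 and 2.81 FPKM in RMC-6236 replicates 1 to 4. This junction protein (CD31) rose by 1.06 ± 0.15 (adjusted p = 0.00053). Plvap, which forms the diaphragms of fenestrated capillaries, had 31.5 ± 8.11 FPKM with the combination, against 14.2 ± 1.36 with RMC-6236 (1.07 ± 0.17), and the guidance receptor Robo4 had 4.10 ± 1.66 FPKM with the combination, against 1.54 ± 0.0767 with RMC-6236 (0.95 ± 0.17). Flt1, the VEGF receptor that acts largely as a decoy, was the exception and fell by 0.46 ± 0.09 to 6.32 ± 0.328 FPKM with the combination, against 9.10 ± 0.991 with RMC-6236 (adjusted p = 0.0052). Lyve1, a lymphatic endothelial receptor also made by some macrophages, had 6.12 ± 4.61 FPKM with the combination, against 1.56 ± 0.0865 with RMC-6236 and was not called (adjusted p = 0.12).

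Leaving out any single library gave 16 or 17 endothelial genes called higher. With combination replicate 3 as the only combination library, the library with an acinar sum inside the RMC-6236 range, the median was 0.72 and 6 of 19 were called. With the acinar score as a covariate the median was 0.60 and 6 were called. The part of acinar tissue in the endothelial difference was not tested beyond these fits.

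Pericyte genes rose too. Of 8 tested pericyte and smooth muscle genes 5 were higher, against 5.16% of all genes tested, and none lower, with a median of 1.11. Of the 8, 1 (Abcc9) was tested only through the combination libraries. Abcc9 and Kcnj8, the paired subunits of the pericyte potassium channel, rose by 1.10 ± 0.17 and 1.13 ± 0.21. Abcc9 had 2.79, 2.16, 2.85 and 2.54 FPKM in combination replicates 1 to 4, against 0.292, 1.54, 0.601 and 0.478 FPKM in RMC-6236 replicates 1 to 4. Rgs5, a regulator of G protein signalling in pericytes, had 15.3 ± 8.17 FPKM with the combination, against 5.52 ± 1.09 with RMC-6236 (1.2002 ± 0.28, adjusted p = 0.016), and the adhesion molecule Mcam had 13.6 ± 4.01 FPKM with the combination, against 6.28 ± 0.932 with RMC-6236 (0.97 ± 0.22). In KPC cells cultured without stroma Rgs5 was also called higher. It had 1.22 ± 0.0932 FPKM with the combination there, against 0.0867 ± 0.0322 with RMC-6236 (1.03 ± 0.07). The smooth muscle members behaved differently. Actg2, enteric smooth muscle actin, had 4.22, 4.06, 127 and 3.77 FPKM in combination replicates 1 to 4, against 3.33, 5.63, 2.62 and 3.42 FPKM in RMC-6236 replicates 1 to 4. Only combination replicate 3 was high, and neither Actg2 nor desmin (Des) was called (adjusted p = 0.37 for Actg2 and 0.10 for Des).

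All 4 tested haemoglobin genes rose by about 2 log2 units and were called higher, against 5.16% of all genes tested. Hbb-bs, an adult beta chain, had 27.7, 39.3, 21.1 and 57.1 FPKM in combination replicates 1 to 4, against 3.48, 14.4, 8.89 and 6.36 FPKM in RMC-6236 replicates 1 to 4. The groups did not overlap (2.05 ± 0.35, adjusted p = 0.0023). Hba-a1 rose by 2.09 ± 0.32, Hba-a2 by 1.98 ± 0.30 and Hbb-bt by 1.99 ± 0.33. Summed over the erythroid list, FPKM were 69.9 to 177 with the combination and 12.6 to 46.5 with RMC-6236, against 25.4 to 46.2 with tazemetostat and 29.6 to 46.6 in control. Reads may be shared between the close alpha copies and between the close beta copies. The tumours were not stated to have been perfused, and the part of blood in the endothelial and neutrophil differences was not tested.

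**Figure D2:**
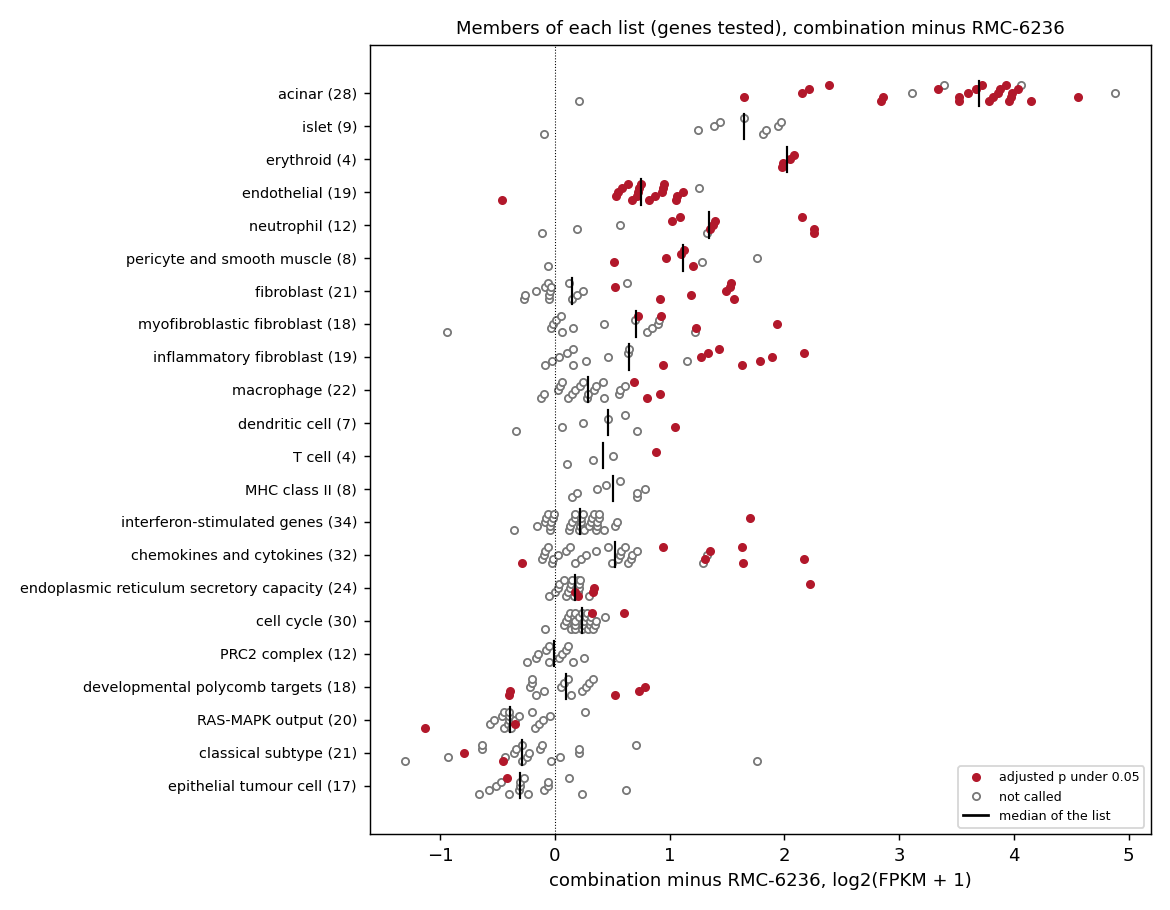
Difference between the combination and RMC-6236 for each tested member of 22 lists (horizontal axis, log2(FPKM + 1) difference; filled points passed an adjusted p of 0.05, the line is the list's median, the number of tested genes is in brackets). Endothelial members sit to the right of 0 except Flt1, and RAS-MAPK output members to the left except 1.

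Part of the fibroblast genes rose, while the most abundant collagens did not pass the test. Of 21 fibroblast genes, all tested, 7 were higher, against 5.16% of all genes tested, and none lower, with a median of 0.15. Mmp2, a gelatinase secreted by fibroblasts, had 123, 144, 89.0 and 105 FPKM in combination replicates 1 to 4, against 43.6, 41.2, 33.7 and 34.2 FPKM in RMC-6236 replicates 1 to 4. It rose by 1.56 ± 0.24 (adjusted p = 0.00099), and every combination library was above every RMC-6236 library. Lum, the collagen-binding proteoglycan lumican, had 77.5 ± 6.25 FPKM with the combination, against 26.8 ± 7.90 with RMC-6236 (1.54 ± 0.35). The surface marker Thy1 had 19.2 ± 4.66 FPKM with the combination, against 6.11 ± 2.25 with RMC-6236 (1.53 ± 0.21), and collagen Col5a2 had 30.3 ± 3.99 FPKM with the combination, against 10.7 ± 4.87 with RMC-6236 (1.49 ± 0.22). The most abundant members were not called. Col1a1 had 1798, 1799, 1588 and 1609 FPKM in combination replicates 1 to 4, against 2219.9, 1654, 1724 and 1646 FPKM in RMC-6236 replicates 1 to 4. Col1a1 differed by -0.08 ± 0.20 (adjusted p = 0.86) and Col3a1 by 0.19 ± 0.22 (adjusted p = 0.66). In contrast Col1a2, whose product joins that of Col1a1 in type I collagen, rose by 1.18 ± 0.22 to 312 ± 10.4 FPKM with the combination, against 138 ± 21.1 with RMC-6236.

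**Figure D3:**
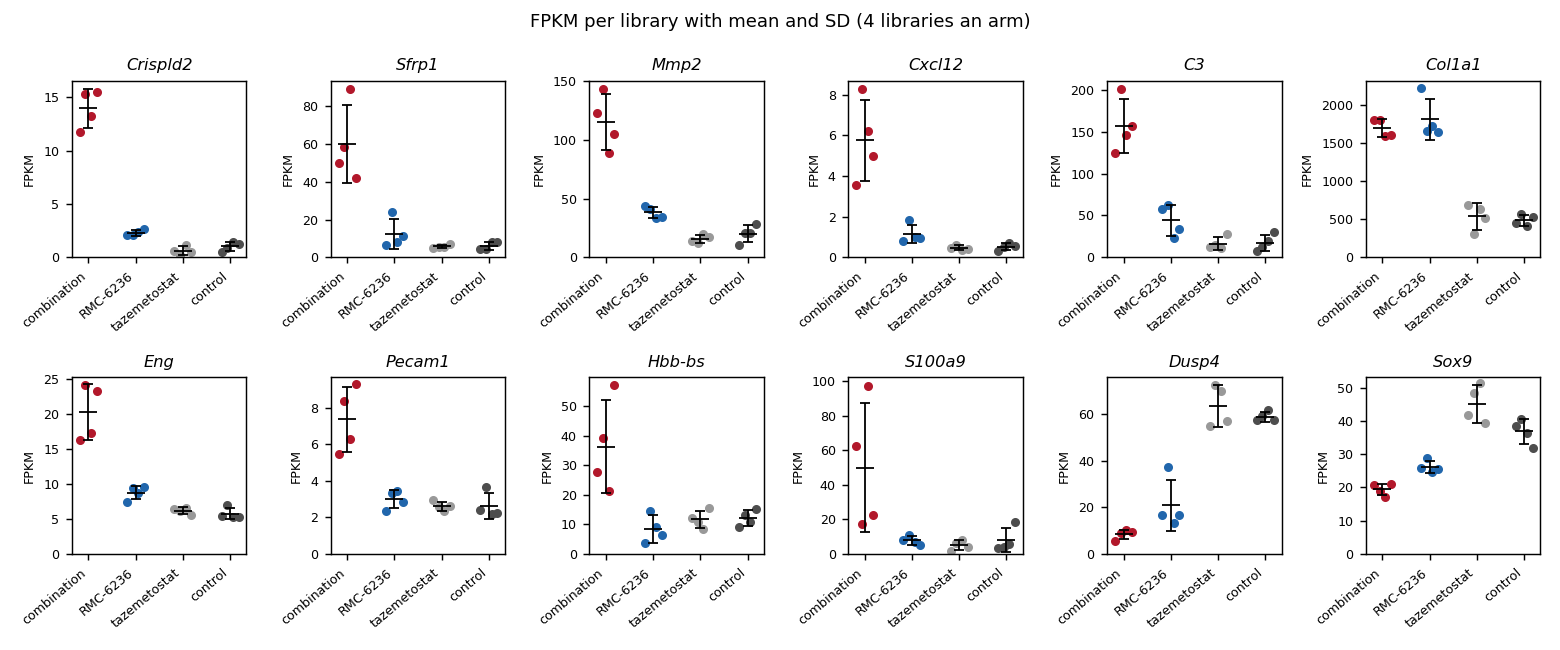
FPKM of 12 genes in each of the 16 tumour libraries by arm (points; bars are mean and SD of 4 libraries). Crispld2, Sfrp1, Mmp2, Cxcl12, C3, Eng, Pecam1, Hbb-bs and S100a9 were higher in every combination library than in any RMC-6236 library, Dusp4 and Sox9 lower, and Col1a1 overlapped.

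Myofibroblast genes were called higher in 4 of 18, against 5.16% of all genes tested, and none was called lower. A positive difference was seen in 15 of the 18, and the median was 0.71. Postn, the matricellular protein periostin, had 20.3 ± 6.19 FPKM with the combination, against 7.87 ± 1.23 with RMC-6236 (1.23 ± 0.19, adjusted p = 0.0012). Col12a1 rose by 0.73 ± 0.15, and Igfbp3, which binds insulin-like growth factors, rose by 0.92 ± 0.18 with overlapping groups. The actin-binding protein Tagln had 26.3, 29.3, 136 and 27.9 FPKM in combination replicates 1 to 4, against 6.56, 22.6, 7.86 and 8.72 FPKM in RMC-6236 replicates 1 to 4. Combination replicate 3 was far above the rest, and the call ended without it or without RMC-6236 replicate 1, 3 or 4 (adjusted p up to 0.0884). Acta2, smooth muscle actin, had 177 ± 78.9 FPKM with the combination, against 99.1 ± 34.3 with RMC-6236 and was not called (0.80 ± 0.31, adjusted p = 0.14).

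Secreted and inflammatory fibroblast genes were called higher in 8 of 19, against 5.16% of all genes tested, none was called lower, and the median was 0.65. Cxcl12, Clec3b and Ptx3, 3 of the 8, reached the filter only through the combination libraries, so the count is a description. Cxcl12, the ligand of CXCR4, had 3.54, 8.27, 6.20 and 4.97 FPKM in combination replicates 1 to 4, against 0.783, 1.81, 1.02 and 0.968 FPKM in RMC-6236 replicates 1 to 4. It rose by 1.63 ± 0.18 (adjusted p = 9.6e-05). Cxcl14, a chemokine of fibroblasts and epithelium, had 23.8 ± 9.56 FPKM with the combination, against 4.60 ± 2.48 with RMC-6236 (2.17 ± 0.40). Complement genes C3 and C4b rose by 1.89 ± 0.40 and 1.78 ± 0.33. C3 had 124, 201, 146 and 157 FPKM in combination replicates 1 to 4, against 57.3, 62.3, 23.1 and 33.9 FPKM in RMC-6236 replicates 1 to 4. Ptx3, a soluble pattern recognition protein, had the smallest adjusted p of all 13545 genes, having passed the filter on its 4 combination libraries alone. Ptx3 had 1.81, 1.97, 1.97 and 2.13 FPKM in combination replicates 1 to 4, against 0.0989, 0.175, 0.272 and 0.383 FPKM in RMC-6236 replicates 1 to 4. Its difference was 1.27 ± 0.08 (adjusted p = 1.7e-06). Next came Crispld2, a secreted glycoprotein, with 11.8, 15.3, 13.2 and 15.5 FPKM in combination replicates 1 to 4, against 2.12, 2.06, 2.32 and 2.61 FPKM in RMC-6236 replicates 1 to 4 (2.18 ± 0.17, adjusted p = 1.1e-05). Dpt, the matrix protein dermatopontin, had 91.2 ± 20.2 FPKM with the combination, against 88.7 ± 18.6 with RMC-6236 and was not called (adjusted p = 0.97). Without RMC-6236 replicate 4 the inflammatory fibroblast count was 5.

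The wider list of chemokines and cytokines had 6 of 32 tested genes higher, against 5.16% of all genes tested. It had 1 lower, against 2.97%, and a median of 0.52. Ccl11 and Cxcl12, both higher, and Cxcl3 and Cxcl13 reached the filter only through the combination libraries. Besides Cxcl12 and Cxcl14 there were Ccl8 (1.64 ± 0.38) and Ccl11, eotaxin (1.31 ± 0.19, adjusted p = 0.00076), which recruit monocytes and eosinophils. Tgfb1 fell by 0.29 ± 0.05 to 27.4 ± 1.66 FPKM with the combination, against 33.6 ± 1.36 with RMC-6236 (adjusted p = 0.0015). Without RMC-6236 replicate 4 the number higher was 3. Ccl8, at 13.8 ± 5.68 FPKM with the combination, against 3.71 ± 1.63 with RMC-6236, was not called without that library or without combination replicate 4 (adjusted p up to 0.0574).

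Neutrophil genes were called higher in 8 of 12 tested genes, against 5.16% of all genes tested, none was called lower, and the median was 1.34. Of the 12, 3 passed the filter only through the combination libraries, Retnlg and Cxcr2 among them. S100a8 and S100a9 form calprotectin, the main cytosolic protein of neutrophils. S100a9 had 62.3, 17.1, 97.4 and 22.5 FPKM in combination replicates 1 to 4, against 7.91, 10.9, 6.92 and 5.07 FPKM in RMC-6236 replicates 1 to 4. S100a8 had 32.98, 8.09, 48.8 and 10.8 FPKM in combination replicates 1 to 4, against 3.20, 4.55, 3.12 and 3.83 FPKM in RMC-6236 replicates 1 to 4. Combination replicates 1 and 3 were the high libraries, replicates 2 and 4 lay closer to the RMC-6236 arm, and the groups did not overlap. The differences were 2.25 ± 0.58 for S100a9 (adjusted p = 0.029) and 2.16 ± 0.47 for S100a8 (adjusted p = 0.012). Retnlg, a resistin-like protein of mouse neutrophils, had 11.9, 1.82, 11.1 and 2.70 FPKM in combination replicates 1 to 4, against 0.253, 0.739, 0.290 and 0.108 FPKM in RMC-6236 replicates 1 to 4 (2.26 ± 0.43). Cxcr2, the chemokine receptor that guides neutrophils, had 3.83 ± 2.98 FPKM with the combination, against 0.623 ± 0.207 with RMC-6236 (1.39 ± 0.29). Il1b had 7.28 ± 3.11 FPKM with the combination, against 2.45 ± 2.15 with RMC-6236, with overlapping groups (1.35 ± 0.39, adjusted p = 0.047). The count was 4 without RMC-6236 replicate 1 and 5 without combination replicate 1 or 3 or RMC-6236 replicate 3 or 4, and 2 in the fit of the 8 compared libraries. S100a9 lost its call without 5 of the 8 libraries (adjusted p up to 0.0857) and Il1b without 6 (up to 0.137).

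Macrophage genes leaned higher. Of 22, 3 were called higher, against 5.16% of all genes tested, and none lower, with a median of 0.29. A positive difference was seen in 20 of the 22, and in 9 every combination library was above every RMC-6236 library, against 7.90% of all genes. Itgam (CD11b), an integrin of all myeloid cells, had 31.0 ± 2.47 FPKM with the combination, against 16.6 ± 6.16 with RMC-6236 (0.91 ± 0.23, adjusted p = 0.021). The mannose receptor Mrc1 had 25.2 ± 9.54 FPKM with the combination, against 13.4 ± 1.39 with RMC-6236 (0.81 ± 0.18) and the monocyte chemokine receptor Ccr2 had 9.61 ± 2.41 FPKM with the combination, against 5.51 ± 0.878 with RMC-6236 (0.69 ± 0.18). The most abundant members were not called. Lysozyme Lyz2 had 1106 ± 159 FPKM with the combination, against 903 ± 118 with RMC-6236 (adjusted p = 0.22), and apolipoprotein Apoe had 582 ± 84.7 FPKM with the combination, against 645 ± 209 with RMC-6236 (adjusted p = 0.88). The count was 1 without combination replicate 4 or RMC-6236 replicate 4, and Itgam and Ccr2 each lost the call without 4 of the 8 libraries (adjusted p up to 0.0699 and 0.0781).

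Of the lymphocyte lists, 4 of 24 T cell genes and 1 of 14 cytotoxic genes reached the filter. Of the 4 T cell genes 1 was called higher, against 5.16% of all genes tested. Trac, the constant region of the T cell receptor alpha chain, had 2.51 ± 1.37 FPKM with the combination, against 0.855 ± 0.517 with RMC-6236, with overlapping groups (0.88 ± 0.24, adjusted p = 0.036), and lost the call without 6 of the 8 libraries (up to 0.11). No B and plasma cell gene of 5 and no MHC class II gene of 8 was called, and Cd74, the invariant chain, had 115 ± 37.6 FPKM with the combination, against 64.4 ± 14.1 with RMC-6236 (adjusted p = 0.065). MHC class I had 1 of 16 higher, against 5.16% of all genes tested. It was H2-Q7 (0.69 ± 0.18, adjusted p = 0.028, up to 0.0841 without single libraries), whose close copies leave the split of reads uncertain. The dendritic list had 1 of 7 higher, the integrin Itgax or CD11c (1.05 ± 0.22). Interferon-stimulated genes had 1 of 34 higher, Ifi27l2a (1.70 ± 0.47, adjusted p = 0.039, lost without 7 of the 8 libraries, up to 0.103). Both counts stand against the same 5.16% of all genes tested. Among the 34 interferon-stimulated genes 10 had every combination library above every RMC-6236 library, against 7.90% of all genes tested. The medians of these 4 lists were 0.51 for MHC class II, 0.19 for class I, 0.46 for dendritic cells and 0.22 for interferon-stimulated genes.

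Genes of the tumour epithelium leaned lower. The epithelial list had 1 of 17 lower, against 2.97% of all genes tested, and none higher, with a median of -0.30. Sox9, a ductal transcription factor, had 20.6, 19.1, 17.1 and 20.9 FPKM in combination replicates 1 to 4, against 25.9, 28.9, 24.5 and 25.6 FPKM in RMC-6236 replicates 1 to 4. It fell by 0.42 ± 0.09 (adjusted p = 0.012), without overlap. The keratins did not pass the test. Krt8 had 465 ± 81.8 FPKM with the combination, against 611 ± 75.2 with RMC-6236 (adjusted p = 0.13), and Krt19 had 317 ± 119 FPKM with the combination, against 451 ± 111 with RMC-6236 (adjusted p = 0.22). The classical subtype list, genes of the gastric-like form of pancreatic cancer, had 2 of 21 lower, against 2.97% of all genes tested. The intestinal homeobox factor Cdx2 fell by 0.79 ± 0.13 to 8.11 ± 1.83 FPKM with the combination, against 14.7 ± 2.48 with RMC-6236, and the tight junction gene Cldn18 fell by 0.45 ± 0.08 to 22.2 ± 0.511 FPKM with the combination, against 30.9 ± 1.504 with RMC-6236. Lgals4, an abundant galectin of the list, had 49.3 ± 21.0 FPKM with the combination, against 88.2 ± 15.9 with RMC-6236 (adjusted p = 0.12). Of 6 basal-like genes, Itga6 was lower (-0.39 ± 0.11, adjusted p = 0.045), and of 5 mesothelial genes, Msln (-0.63 ± 0.18, adjusted p = 0.048). Each was the only called member of its list, against 2.97% of all genes tested. Both calls ended without some single libraries (5 and 6 of 8, adjusted p up to 0.118 and 0.112).

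RAS-MAPK output, feedback inhibitors and targets of ERK, had 2 of 20 genes lower, against 2.97% of all genes tested, and none higher. A negative difference was seen in 19 of 20, with a median of -0.39, against -0.005 over all genes. Dusp4, a phosphatase that inactivates ERK in the nucleus, had 5.50, 8.71, 10.004 and 9.30 FPKM in combination replicates 1 to 4, against 16.7, 37.1, 13.1 and 16.6 FPKM in RMC-6236 replicates 1 to 4. It fell by 1.14 ± 0.24 (adjusted p = 0.0096). RMC-6236 replicate 2 was the highest of the 8, and without it the difference was -0.83 and still called. The call ended in the fit of the 8 compared libraries (adjusted p = 0.0842), with the acinar covariate (-0.87, adjusted p = 0.218) and with combination replicate 3 as the only combination library (-0.88, adjusted p = 0.337). The receptor signalling inhibitor Spry2 had 3.87 ± 0.890 FPKM with the combination, against 5.15 ± 0.411 with RMC-6236 (-0.35 ± 0.10, adjusted p = 0.044), with overlapping groups, and lost the call without 7 of the 8 libraries (up to 0.119). The most abundant members were not called. Ier3, an early response gene, had 46.6 ± 15.2 FPKM with the combination, against 66.9 ± 39.5 with RMC-6236 (adjusted p = 0.48), and cyclin D1 (Ccnd1) had 45.4 ± 23.5 FPKM with the combination, against 45.6 ± 10.3 with RMC-6236 (adjusted p = 0.86). In the same tumours RMC-6236 without tazemetostat against control, a comparison that shares the RMC-6236 libraries, had Dusp4 at -1.57 ± 0.24 and Spry2 at -1.25 ± 0.10.

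Proliferation and other programmes of the cell showed small differences. The cell cycle list had 2 of 30 higher, a share near the 5.16% of all genes tested, and none lower, with a median of 0.24. The 2 were the S phase cyclin Ccne2 (0.60 ± 0.11) and the ribonucleotide reductase subunit Rrm1 (0.32 ± 0.09, adjusted p = 0.034, up to 0.103 without single libraries, of which 4 of 8 ended the call). Of 24 genes of the secretory endoplasmic reticulum 5 were higher, against 5.16% of all genes tested, with a median of 0.18. Pdia2, the pancreatic disulfide isomerase, tested only through the combination libraries, had 5.39, 5.08, 1.18 and 12.6 FPKM in combination replicates 1 to 4, against 0.211, 0.172, 0.511 and 0.119 FPKM in RMC-6236 replicates 1 to 4 (2.23 ± 0.37), and like the acinar sums it was highest in combination replicate 4 and lowest, within that arm, in replicate 3. The other chaperones were much smaller in size, with Dnajc3 at 0.34 ± 0.06, Hsp90b1 at 0.34 ± 0.09 and Pdia3 at 0.20 ± 0.05, and the count was 2 without combination replicate 3 or RMC-6236 replicate 1 or 4. Hsp90b1 and Pdia3 lost their calls without 6 and 3 of the 8 libraries (adjusted p up to 0.0929 and 0.0687). No ribosome biogenesis gene of 22 was called. Srebf1, the activator of fatty acid synthesis, fell by 0.28 ± 0.07 (adjusted p = 0.022, and up to 0.0703 without combination replicate 1 or RMC-6236 replicate 3 or 4), and Sqstm1, the autophagy receptor p62, fell by 0.37 ± 0.07 to 146 ± 10.7 FPKM with the combination, against 189 ± 18.3 with RMC-6236. Each was the 1 called member of its list, of 23 lipid synthesis genes and 24 autophagy and lysosome genes, against 2.97% of all genes tested. Of 6 adipocyte genes, 3 of them (Fabp4, Adipoq and Cfd) tested only through the combination libraries, Fabp4 was higher (1.23 ± 0.32, adjusted p = 0.025, and up to 0.0816 without RMC-6236 replicate 3 or 4), with combination replicate 3 at 12.9 FPKM, where adipsin (Cfd) also reached 115 FPKM. Fabp4 was the only called adipocyte gene, against 5.16% of all genes tested.

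Among genes outside the acinar list called without overlap, with an arm mean of at least 5 FPKM and no library of the 8 at 0, those that rose most were, after the amylase copies and in order of their difference, Lcn2, Thbs4, Serpina3n, Sfrp1, Cilp, Retnlg, S100a9 and Pdia2. Reg3a (3.41 ± 0.76) and Reg3d (2.51 ± 0.56), each at 0 in RMC-6236 replicates 1 and 2, fall outside that rule. Thbs4, Retnlg and Pdia2 reached the filter only through the combination libraries. Lcn2, an iron-sequestering acute phase protein, had 29.8, 26.4, 19.2 and 58.4 FPKM in combination replicates 1 to 4, against 4.47, 0.892, 7.48 and 8.38 FPKM in RMC-6236 replicates 1 to 4 (2.57 ± 0.47). Thbs4, a matricellular thrombospondin, had 4.25, 27.8, 3.04 and 7.59 FPKM in combination replicates 1 to 4, against 0.237, 0.0998, 1.04 and 0.746 FPKM in RMC-6236 replicates 1 to 4 (2.52 ± 0.44), and combination replicate 2 was the highest. Serpina3n had 52.7, 61.0, 115 and 53.6 FPKM in combination replicates 1 to 4, against 12.7, 12.1, 7.44 and 12.1 FPKM in RMC-6236 replicates 1 to 4. This serine protease inhibitor rose by 2.51 ± 0.47 (adjusted p = 0.0049), and combination replicate 3 was the highest. Sfrp1, a secreted inhibitor of WNT ligands, had 49.9, 58.5, 89.2 and 41.8 FPKM in combination replicates 1 to 4, against 6.37, 24.1, 7.89 and 11.04 FPKM in RMC-6236 replicates 1 to 4 (2.30 ± 0.33), and Cilp, a matrix protein of cartilage and fibroblasts, had 21.5 ± 8.28 FPKM with the combination, against 3.58 ± 1.45 with RMC-6236 (2.28 ± 0.35).

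By the same rule, the genes that fell most were Dusp4, Gadd45a, Cd200r4, Ifitm1, Cdx2, Col18a1, Mrpl53, Klf5, Zfpm1 and Mir7005. Gadd45a, a growth arrest gene induced by DNA damage and stress, had 21.4, 16.3, 26.6 and 11.3 FPKM in combination replicates 1 to 4, against 41.7, 34.8, 34.9 and 31.5 FPKM in RMC-6236 replicates 1 to 4. It fell by 0.94 ± 0.19 (adjusted p = 0.006). Cd200r4, a myeloid receptor of the CD200 receptor family, had 2.40 ± 0.283 FPKM with the combination, against 5.40 ± 0.855 with RMC-6236 (-0.91 ± 0.14), and the interferon-induced membrane protein Ifitm1 had 68.2 ± 7.12 FPKM with the combination, against 127 ± 38.3 with RMC-6236 (-0.85 ± 0.17). Col18a1, a basement membrane collagen, fell by 0.77 ± 0.11 to 80.2 ± 13.5 FPKM with the combination, against 137 ± 14.1 with RMC-6236. The epithelial factor Klf5 fell by 0.72 ± 0.16, the GATA cofactor Zfpm1 by 0.71 ± 0.14 and the mitochondrial ribosome subunit Mrpl53 by 0.76 ± 0.17. Mir7005 fell by 0.69 ± 0.14, but a microRNA gene in an mRNA library may count reads of an overlapping transcript, so its value is uncertain.

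Whether the step with tazemetostat differed in the presence of RMC-6236 was tested by the interaction, the combination minus RMC-6236 difference less the tazemetostat minus control difference. It was called for 252 genes (1.86%), 202 higher (1.49%) and 50 lower (0.369%), and 243 of the 252 were also called between the combination and RMC-6236. Tazemetostat against control gave 0 called genes (0%) in the same limma fit and 1023 (7.55%) at an unadjusted p under 0.05. Among the genes named here Thbs4 had the largest called interaction, 2.64 ± 0.62 (adjusted p = 0.045). Thbs4 reached the filter only through the combination libraries, so this rank is a description. Crispld2 followed, with levels of 13.96 ± 1.80 FPKM with the combination, 2.28 ± 0.249 with RMC-6236, 0.612 ± 0.419 with tazemetostat and 1.01 ± 0.402 in control. Its interaction was 2.51 ± 0.24 (adjusted p = 0.00018).

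The genes named here were picked by rule from chosen lists, so those with a called interaction do not describe the 252 genes as a whole. Of the endothelial list 5 of 19 tested genes had a called interaction, against 1.86% of all genes tested, and of the haemoglobin genes 4 of 4. Mmp2 had 115 ± 23.5 FPKM with the combination, 38.2 ± 4.99 with RMC-6236, 15.6 ± 3.32 with tazemetostat and 20.1 ± 7.34 in control, an interaction of 1.85 ± 0.33 (adjusted p = 0.012). Cxcl12 had 1.68 ± 0.26 (adjusted p = 0.0044), Eng 1.02 ± 0.17 (adjusted p = 0.0071) and Hbb-bs 2.10 ± 0.49 (adjusted p = 0.045). Sox9 had 19.4 ± 1.72 FPKM with the combination, 26.2 ± 1.86 with RMC-6236, 45.3 ± 5.68 with tazemetostat and 36.9 ± 3.69 in control, and its interaction was -0.70 ± 0.13 (adjusted p = 0.013). Of the acinar list only Cuzd1 had a called interaction (1.52 ± 0.34, adjusted p = 0.036), and Cela2a had 3.53 ± 1.42 (adjusted p = 0.26). Cuzd1 reached the filter only through the combination libraries, so its call is a description. Without RMC-6236 replicate 4 the interaction was called for 154 genes.

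**Figure D4:**
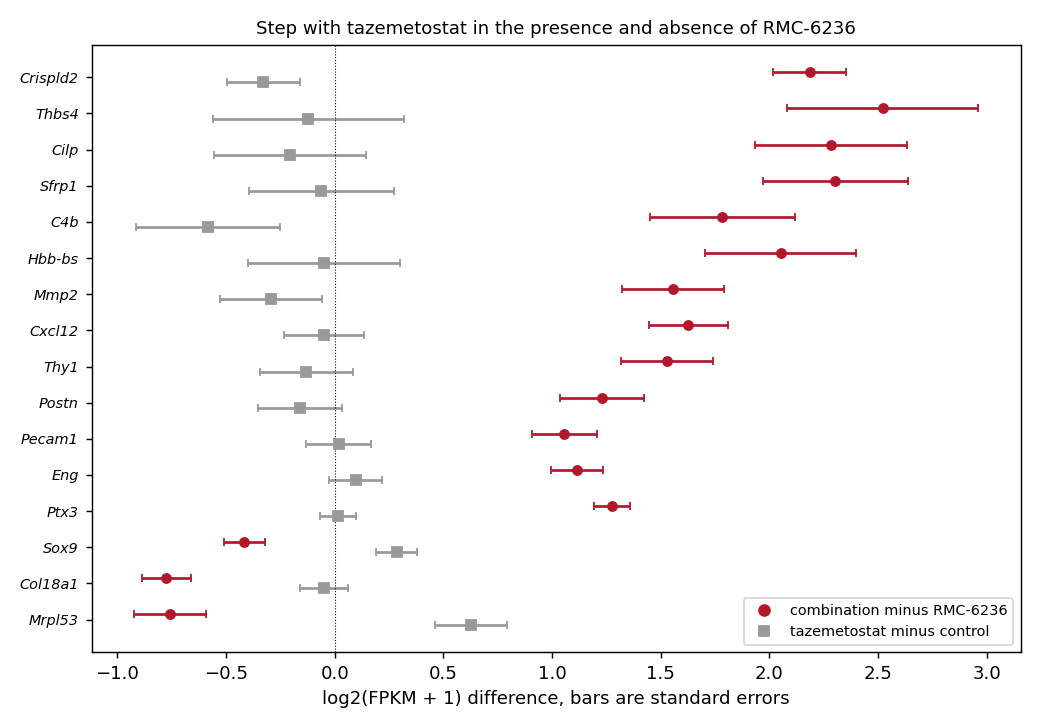
Differences with standard errors for 16 genes with a called interaction: combination minus RMC-6236 (circles) and tazemetostat minus control (squares), on the log2(FPKM + 1) scale. Crispld2 rose by 2.18 on RMC-6236 and had -0.33 without it. Signs were opposite in the 2 settings for all genes drawn except Pecam1, Eng, Ptx3 and Col18a1. No tazemetostat minus control difference was called.

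RMC-6236 against control, which shares the RMC-6236 libraries, had 2749 genes higher (20.3%) and 2594 lower (19.2%). Col1a1, not called between the combination and RMC-6236, had 1698 ± 115 FPKM with the combination, 1811 ± 275 with RMC-6236, 535 ± 173 with tazemetostat and 486 ± 73.0 in control, a difference of 1.90 ± 0.20 between RMC-6236 and control. Acta2 had 2.96 ± 0.31 and Lyz2 1.87 ± 0.14. Among vessel genes Eng was higher with RMC-6236 than in control (0.54 ± 0.12, adjusted p = 0.0028), and so was Plvap (0.55 ± 0.17, adjusted p = 0.021). Flt1 was lower (-1.05 ± 0.09, adjusted p = 1.7e-06). Pecam1 (0.15 ± 0.15, adjusted p = 0.44) and Hbb-bs (-0.60 ± 0.35, adjusted p = 0.19) were not called there.

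KPC cells in culture, from a separate table with 3 libraries an arm, hold no stroma, and there 6132 of 12567 genes (48.8%) were called between the combination and RMC-6236, 2551 higher (20.3%) and 3581 lower (28.5%). Of the 699 genes higher in tumours only 247 (35.3%) reached the filter in the cultured cells, against 89.1% of all genes tested in tumours. Of these 247, 129 (52.2%) were higher in the cells too and 36 lower, where 19.9% of all shared genes were higher. The 129 are 5.38% of the 2400 shared genes higher in cells. Of the 402 genes lower in tumours 399 (99.3%) were tested in the cells, and 137 (34.3%) were lower too and 73 higher, where 29.2% of all shared genes were lower. The 137 are 3.89% of the 3519 shared genes lower in cells.

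Several of the secreted genes that rose in tumours were made by the cultured cells as well. The order of the arms was the same there for Serpina3n, Reg3g, Lcn2 and C3, but not for Sfrp1. Serpina3n had 37.7 ± 1.63 FPKM with the combination, against 1.48 ± 0.284 with RMC-6236 in culture (mean ± SD, n = 3 each), a difference of 3.97 ± 0.10 (adjusted p = 7.1e-11). Reg3g had 12.02 ± 0.340 FPKM with the combination, against 1.72 ± 0.285 with RMC-6236 (2.26 ± 0.07). Lcn2 had 246 ± 6.30 FPKM with the combination, against 124 ± 3.16 with RMC-6236 (0.98 ± 0.04). All of these were called in the cells, and so was complement C3, with 133 ± 2.70 FPKM with the combination, against 62.9 ± 1.51 with RMC-6236 (1.07 ± 0.03). Sfrp1 had 7.54 ± 0.384 FPKM with the combination in culture, against 8.65 ± 0.443 with RMC-6236, and was not called (-0.18 ± 0.08, adjusted p = 0.089). Of the acinar list, Sycn had 3.72 ± 0.753 FPKM with the combination, against 1.21 ± 0.234 with RMC-6236 (1.09 ± 0.11), and Gata4 had 4.30 ± 0.454 FPKM with the combination, against 2.53 ± 0.113 with RMC-6236 (0.58 ± 0.08). Cela2a was listed at 0 in all 6 of these libraries.

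Among the genes that fell in tumours, Dusp4 had 29.4 ± 1.28 FPKM with the combination, against 44.0 ± 1.10 with RMC-6236 in the cultured cells (-0.57 ± 0.04). Gadd45a had 9.27 ± 0.548 FPKM with the combination, against 16.1 ± 0.728 with RMC-6236 (-0.74 ± 0.07), and Col18a1 had 30.1 ± 0.579 FPKM with the combination, against 49.1 ± 1.32 with RMC-6236 (-0.69 ± 0.03). These 3 fell in culture too, while Klf5 had 34.8 ± 1.81 FPKM with the combination, against 25.9 ± 1.09 with RMC-6236 and was higher there (0.41 ± 0.05). Zfpm1 was also called higher in culture (0.30 ± 0.06), and Ifitm1 (-0.22 ± 0.04) and Mir7005 (-0.33 ± 0.08) were called lower. Cdx2 (-0.07 ± 0.05) and Mrpl53 (0.29 ± 0.21) were not called there, and Cd200r4 was not tested. Mmp2, Thy1, Pecam1, Cxcl12, S100a9 and Ctrb1 averaged under 0.1 FPKM in both of these arms of the cultured cells.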

How the data were processed

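RNA was measured in 16 KPC orthotopic tumour libraries and, in a separate table, 12 libraries of cultured KPC cells. The authors deposited FPKM per gene from StringTie 1.3.1c after STAR 2.5.3a alignment and FastQC 0.11.2, per the submitters' processing notes. The mouse build and the use of strand in counting are not given in the sources used here. Groups came from the labels. Genes with at least 1 FPKM in 4 or more tumour libraries (3 or more culture libraries) were tested on log2(FPKM + 1) with limma 3.58.1 in R 4.3.3, with 1 mean per arm over all libraries of a table and Benjamini-Hochberg adjustment over all genes tested. On simulated data with a log2 change of 1, 97 of 100 higher and 98 of 100 lower genes were recovered, with 14 false calls among 13168 genes. The changes were planted only in genes with a mean log2(FPKM + 1) above 3, and each gene had 1 spread for all arms. Recovery of lower genes, or of genes more variable in 1 arm, was not measured. Members and gene lists were chosen with earlier results of these data known. Genes were named by rule: Ezh2, the 3 most abundant acinar genes per role, the 10 that rose and fell most without overlap, with an arm mean of at least 5 FPKM, no library of the 8 at 0 and a gene symbol that is not a provisional name, and, of each other list, at most 4 called genes by size of change and the 2 most abundant genes, of which uncalled ones are not all printed. Ptx3, Crispld2, Flt1, Lyve1, Cuzd1, Tgfb1, Rnase1, Col1a2 and Ccl11 were added after their values were seen. Alternatives covered the pseudocount, filter, scaling, samples in the fit, an acinar covariate and left-out libraries.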

Additional observations from a re-analysis of the deposited data

Results flagged for a closer look

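In these genes 1 library lay far from the other 3 of its arm, by the ratio of its gap to the arm's whole range. The ratio was taken on the log2(FPKM + 1) scale, and the levels printed are FPKM. In the combination arm replicate 3 was the high library for Actg2 (127 FPKM, ratio 0.973), Tagln (136 FPKM, 0.936), Spry2 (5.21 FPKM, 0.932), Fabp4 (12.9 FPKM, 0.856) and Gata4 (2.38 FPKM, 0.852), and replicate 4 was the low one for Msln (31.7 FPKM, 0.846). In the RMC-6236 arm replicate 2 was the high library for Igfbp3 (189 FPKM, ratio 0.907), Itgam (25.8 FPKM, 0.902) and Krt8 (723 FPKM, 0.896). Replicate 4 was the low one for Ccnd1 (30.2 FPKM, 0.913) and Hoxb7 (0.522 FPKM, 0.836). Replicate 3 was the low one for Serpina3n (7.44 FPKM, 0.899) and the high one for Cuzd1 (0.219 FPKM, 0.853), and replicate 1 was the low one for Postn (6.04 FPKM, 0.851) and the high one for Col1a1 (2219.9 FPKM, 0.844). These are 15 of 228 gene and arm groups looked at, and chance alone gives about 1 in 20.

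The step with tazemetostat differed between tumours with and without RMC-6236, by the interaction in the limma fit, for 28 of the named genes. The interaction was positive for matrix and fibroblast genes, at 2.64 for Thbs4, 2.51 for Crispld2, 2.49 for Cilp, 2.37 for C4b, 2.36 for Sfrp1, 1.85 for Mmp2, 1.68 for Cxcl12, 1.66 for Thy1, 1.39 for Postn, 1.36 for Col5a2, 1.26 for Ptx3 and 1.18 for Ccl11. Vessel wall genes had 1.29 for Kcnj8, 1.17 for Abcc9, 1.04 for Pecam1, 1.03 for Robo4 and 1.02 for Eng. Thbs4, Cxcl12, Ptx3, Ccl11, Abcc9 and, among the pancreatic genes below, Cuzd1 reached the filter only through the combination libraries. Haemoglobin genes had 2.11 for Hbb-bt, 2.10 for Hbb-bs, 2.02 for Hba-a2 and 2.01 for Hba-a1, and the pancreatic genes had 2.08 for Reg3g and 1.52 for Cuzd1. It was negative for Mrpl53 at -1.38, Col18a1 at -0.73, Sox9 at -0.70, Cldn18 at -0.51 and Tgfb1 at -0.42.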

How the results depend on the processing

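Left-out single libraries gave 513 to 693 genes higher, 227 to 451 lower and 154 to 263 with a called interaction, and 5291 to 5565 called genes in KPC cells. With a pseudocount of 0.1 the interaction had 96 genes, with no filter 1352 genes were higher, and rescaling by the median ratio gave 639 lower. The fit of the 8 compared libraries alone gave 223 lower. The acinar covariate gave 359 higher and 123 lower, and combination replicate 3 as the only combination library, added after the data were seen, gave 328 higher and 33 lower. That lone library is assumed to vary like the other groups. Under the covariate Clps became -0.72, Reg2 -0.33, Sycn -0.11 and Ins2 -4.02, and with combination replicate 3 alone Spry2 became 0.016 and Ins2, not called, -2.53. The cause of these moves was not tested.

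Of 90 named genes called, 67 were called without each of the 8 libraries in turn, 29 under the acinar covariate and 29 with combination replicate 3 alone. Sfrp1, Retnlg, Cd200r4, Col18a1, Cxcl14, Cxcl12, Ptx3, Crispld2, Abcc9, Eng, Pecam1, Itgax and Tgfb1 were called under every alternative run. With replicate number as a block 606 genes were higher, 301 lower, and 201 had a called interaction. The labels do not say whether the numbers pair the libraries. Deviations of same-numbered combination and RMC-6236 libraries correlated at 0.0906, -0.249, -0.349 and 0.0714 for numbers 1 to 4. Differently numbered libraries were not compared, so these values cannot decide whether libraries were paired. FPKM hold no depth, so no counting error could be set beside low values.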
